A study of Homo sapiens with 8 samples.

Results

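H3K27ac was examined at 10 genes that carry gemcitabine and fluorouracil into their active and inactive forms or are hit by them: *SLC29A1*, *DCK*, *CMPK1*, *CDA*, *NT5C2*, *RRM1*, *RRM2*, *TYMS*, *UMPS* and *DPYD*. They were chosen by their known roles out of 20056 protein-coding genes, and every H3K27ac peak in each gene and 20 kb on either side was taken. The cells were MIA PaCa-2, which comes from a human carcinoma of the pancreas, made into stable lines with the lentiMPHv2 and lentiSAMv2 plasmids of the CRISPRa system, which draws an activator to a promoter through a guide RNA. MP2_HDAC1_OE carries an *HDAC1* guide and MP2_NTC a non-targeting guide, so that both lines carry the activator system and differ by the guide. Each line had 2 samples with an H3K27ac antibody and 2 controls with none. Each deposited list pools both samples of a line, so the values have no replicate error, no test between the lines was possible and the depth is unknown.

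Gemcitabine is a cytidine analog that enters cells through nucleoside transporters and must be phosphorylated to act. Its triphosphate is built into DNA, and its diphosphate blocks ribonucleotide reductase, the enzyme that makes deoxynucleotides. Fluorouracil is a uracil analog that is turned into fluorinated nucleotides, one of which blocks thymidylate synthase. Deaminases, nucleotidases and the pyrimidine breakdown pathway remove these drugs or their active forms. H3K27ac is a histone mark found at active promoters and enhancers, and HDAC1 is an enzyme that takes acetyl groups off histones. The question here is where the marked regions of the drug genes were found in both lines and where in 1 line.

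The MP2_HDAC1_OE list held 25045 peaks and the MP2_NTC list 22569. The authors' signal value of a peak ran from 11.0 to 185 in MP2_HDAC1_OE and from 11.7 to 220 in MP2_NTC. Whether signals can be compared between the lists is not known. A peak is therefore described by its rank, the percent of peaks of its own list with a lower signal. At *HDAC1*, the targeted gene, the strongest promoter peak ranked at 93.9% in MP2_HDAC1_OE (chr1:32291469-32291891) and 45.2% in MP2_NTC (chr1:32292210-32292433). The latter overlapped no MP2_HDAC1_OE peak. The MP2_NTC peak at the place of the former, chr1:32291457-32291900, ranked at 40.4%. Peaks of both lists lay within 2 kb of 3 of 6 epithelial markers (*KRT8*, *KRT18* and *KRT19*) and 2 of 3 mesenchymal markers (*VIM* and *ZEB1*). The epithelial markers *EPCAM*, *CDH1* and *KRT7* had no peak there in either list. No peak lay there at 3 acinar, 2 endocrine and 2 leukocyte markers, while *SOX9*, 1 of 2 ductal markers, had peaks of MP2_HDAC1_OE and *CDH5*, 1 of 2 endothelial markers, had peaks of both lists.

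A promoter window ran from 2 kb before to 1 kb after any start that RefSeq lists for a gene. In MP2_HDAC1_OE 7 of the 10 genes had a peak in this window, where 45.7% of 15843 protein-coding genes with a listed start had one. In MP2_NTC 6 of 10 had one, against 44.8% of all genes. The promoters of *SLC29A1*, *CMPK1*, *NT5C2*, *RRM2* and *UMPS* were marked in both lists, 5 of 10 against 39.3% of all genes. *RRM1* and *TYMS* were marked in MP2_HDAC1_OE only, 2 of 10 against 6.36%. *DCK* was marked in MP2_NTC only, 1 of 10 against 5.51%. *CDA* and *DPYD* had a promoter peak in neither list, 2 of 10 against 48.8%. With 10 genes these counts are a description, and no difference from all genes was tested.

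**Figure D1:**
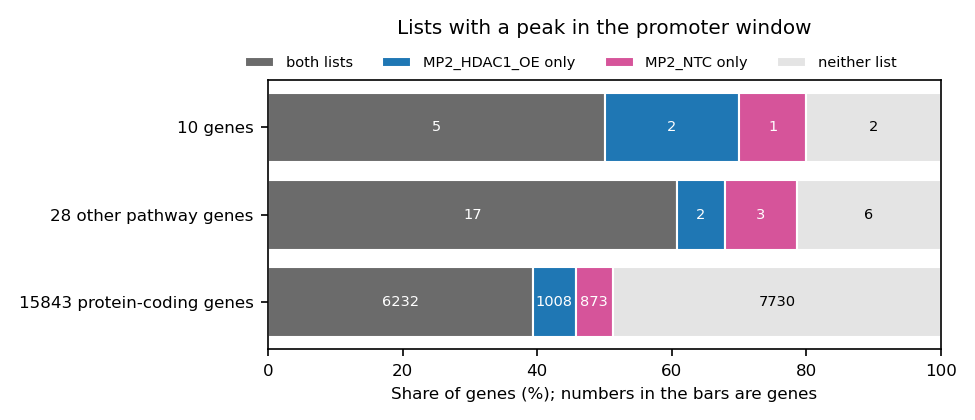
Share of genes (x axis, %) with a peak in the promoter window of both lists, of 1 list or of neither, with the number of genes in each bar. Of the 10 drug genes 5 were marked in both lists, 2 in MP2_HDAC1_OE only, 1 in MP2_NTC only and 2 in neither.

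The promoter sequences of the genes marked in 1 list (*DCK*, *RRM1* and *TYMS*), of *RRM2*, whose peaks lay apart in the lists, of *UMPS*, marked strongly in both, and of *CDA*, marked in neither, are given as the 250 bases before the start from RefSeq (GRCh38.p14), all on the plus strand and 5′ to 3′. They are chr4:70993399-70993648 for *DCK*, chr11:4094435-4094684 for *RRM1*, chr18:657403-657652 for *TYMS*, chr2:10122489-10122738 for the start of *RRM2* further downstream, chr3:124730202-124730451 for *UMPS* and chr1:20588847-20589096 for *CDA*. Capitals mark the motifs that were searched.
DCK: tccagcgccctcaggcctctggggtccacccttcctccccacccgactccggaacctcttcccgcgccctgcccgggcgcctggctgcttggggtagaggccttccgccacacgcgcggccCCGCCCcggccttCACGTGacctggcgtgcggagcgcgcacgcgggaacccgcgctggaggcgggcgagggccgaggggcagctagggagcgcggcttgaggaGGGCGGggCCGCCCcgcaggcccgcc
RRM1: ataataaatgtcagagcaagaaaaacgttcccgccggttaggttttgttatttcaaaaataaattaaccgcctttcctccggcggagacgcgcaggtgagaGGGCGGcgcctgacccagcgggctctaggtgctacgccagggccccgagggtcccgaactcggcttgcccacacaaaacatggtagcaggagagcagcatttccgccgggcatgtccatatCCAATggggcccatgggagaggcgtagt
TYMS: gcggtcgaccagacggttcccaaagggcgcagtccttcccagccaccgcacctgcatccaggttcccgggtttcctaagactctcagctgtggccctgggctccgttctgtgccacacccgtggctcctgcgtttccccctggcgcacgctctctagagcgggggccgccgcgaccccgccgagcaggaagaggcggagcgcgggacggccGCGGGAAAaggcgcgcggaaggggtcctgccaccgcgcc
RRM2: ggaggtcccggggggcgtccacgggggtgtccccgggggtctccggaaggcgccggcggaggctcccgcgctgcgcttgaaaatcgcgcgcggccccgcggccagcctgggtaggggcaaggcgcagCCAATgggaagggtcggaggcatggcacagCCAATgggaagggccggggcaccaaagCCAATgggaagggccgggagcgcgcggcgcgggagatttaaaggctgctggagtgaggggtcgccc
UMPS: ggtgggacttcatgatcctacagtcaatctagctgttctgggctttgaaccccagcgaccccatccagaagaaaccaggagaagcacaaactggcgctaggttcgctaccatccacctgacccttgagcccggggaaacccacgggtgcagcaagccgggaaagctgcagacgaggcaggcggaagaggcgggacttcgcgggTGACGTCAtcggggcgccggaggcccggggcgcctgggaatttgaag
CDA: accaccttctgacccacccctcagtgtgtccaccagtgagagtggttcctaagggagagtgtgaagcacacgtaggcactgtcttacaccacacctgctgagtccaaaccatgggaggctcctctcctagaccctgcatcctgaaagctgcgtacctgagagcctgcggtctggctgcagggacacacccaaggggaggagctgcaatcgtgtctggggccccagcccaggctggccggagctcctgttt

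Both strands were searched for a CCAAT box (CCAAT or ATTGG), a GC box (GGGCGG or CCGCCC), an E2F motif (TTTCCCGC, TTTGGCGC, TTTCGCGC or TTTGCCGC and their reverse complements), a TATA motif (TATAAA or TTTATA), a CRE (TGACGTCA) and an E-box (CACGTG). The CRE and the E-box read the same on both strands. *RRM2* held 3 CCAAT boxes in the sequence above and *RRM1* 1, where 32.0% of 35097 listed promoters of this length held at least 1. Of the sequences above, *DCK* held 3 GC boxes and *RRM1* 1, against 42.6% of promoters with any. GC boxes also lay before listed starts of *NT5C2*, *SLC29A1* and *DPYD* and before the upstream start of *RRM2*, which are not shown. Among the sequences shown, the E2F motif was in *TYMS* and in 2.79% of promoters, the CRE in *UMPS* and in 1.65%, and the E-box in *DCK* and in 6.34%. *CDA* held none of the 6, and the TATA motif, found in 10.7% of promoters, was before none of the listed starts of the 10 genes. A match is a run of letters and not a bound site.

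*SLC29A1* encodes ENT1, the transporter through which gemcitabine mainly enters cells. RefSeq lists starts at 44219615 and 44223595 on chromosome 6, and the promoter peaks lay at the downstream start. In MP2_HDAC1_OE the peaks there were chr6:44223489-44224308, with a signal of 51.0 and a rank of 58.4%, and chr6:44223717-44224536, with a rank of 38.1%. In MP2_NTC they were chr6:44223527-44224346, with a signal of 71.1 and a rank of 78.0%, and 2 more that ranked at 70.3% and 22.5%. The peaks of both lists merged into 1 shared region of 1257 bp, in which the leading peak ranked lower in MP2_HDAC1_OE by 19.6 points. Past the far end of the gene, 13703 bp from the downstream start, a shared region had a leading peak with a signal of 51.8 in MP2_HDAC1_OE and 61.6, at a rank of 68.2%, in MP2_NTC. A peak of MP2_HDAC1_OE (chr6:44234156-44234975, rank 25.8%) had no MP2_NTC peak within 2807 bp. The window also took in the promoter of *HSP90AB1*, a heat shock protein gene, with ranks of 93.6% and 99.9%. These peaks do not enter the promoter ranks of *SLC29A1*, but they are the strongest of its whole window, and their 2 shared regions are counted in it.

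*DCK* encodes deoxycytidine kinase, which puts the first phosphate on gemcitabine. Its window held 1 peak, chr4:70993537-70994356 in MP2_NTC, which covered the start at 70993649 and 112 of the 250 promoter bases shown. The peak had a signal of 59.5 and a rank of 65.6%. The closest peak of MP2_HDAC1_OE lay 90609 bp away. Of genes whose strongest MP2_NTC promoter peak ranked between 60% and 70%, 14.6% had no promoter peak in MP2_HDAC1_OE. *CMPK1* encodes the kinase that adds the next phosphate, and its promoter was marked in both lists. Its leading peak was chr1:47333859-47334286 in MP2_HDAC1_OE, with a rank of 46.2%, and chr1:47333049-47333868 in MP2_NTC, with a rank of 79.4%. The MP2_NTC peak covered the start at 47333790 and the MP2_HDAC1_OE peak lay 69 bp past it, so that they overlapped only at their ends. MP2_HDAC1_OE also had chr1:47333397-47333740, within the leading MP2_NTC peak, with a rank of 40.6%. MP2_NTC also had chr1:47333905-47334171, within the leading MP2_HDAC1_OE peak, with a rank of 1.44%. All these peaks lay in 1 shared region. A further MP2_NTC peak (chr1:47334355-47334562, rank 31.0%) lay 68 bp past this region and counted as unique.

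*CDA* encodes cytidine deaminase, which inactivates gemcitabine, and *NT5C2* a nucleotidase that takes phosphate off nucleotides. *CDA* had no peak of MP2_HDAC1_OE in its window and no promoter peak in MP2_NTC. Its MP2_NTC peaks were chr1:20613285-20614104 and chr1:20613509-20614328 within the gene, 24188 bp or more from the start, with ranks of 24.1% and 21.2%. A stronger MP2_NTC peak, chr1:20633403-20634222 with a rank of 40.7%, lay past the far end of the gene. It covered position 20633458, the lower end of *PINK1*, the gene of a mitochondrial kinase. No start of *PINK1* was listed there, so whether this peak marks the *PINK1* promoter was not settled. The *CDA* promoter was poor in CpG, with 5 CpG in the 250 bases and 0.220 of the number that its C and G content gives. Of protein-coding genes with a ratio under 0.25, 9.85% had a promoter peak in either list, against 71.0% of genes with a ratio between 0.75 and 1. *NT5C2* is read from the minus strand and its peaks lay just inside its most upstream start at 103193272 on chromosome 10. MP2_HDAC1_OE had chr10:103192644-103193088, with a signal of 87.6 and a rank of 92.4%. MP2_NTC had chr10:103192571-103193125, listed with 2 summits at ranks of 86.1% and 78.1%. *NT5C2* thus had the highest promoter rank of the 10 genes in MP2_HDAC1_OE, and the rank there was higher than in MP2_NTC by 6.31 points.

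**Figure D2:**
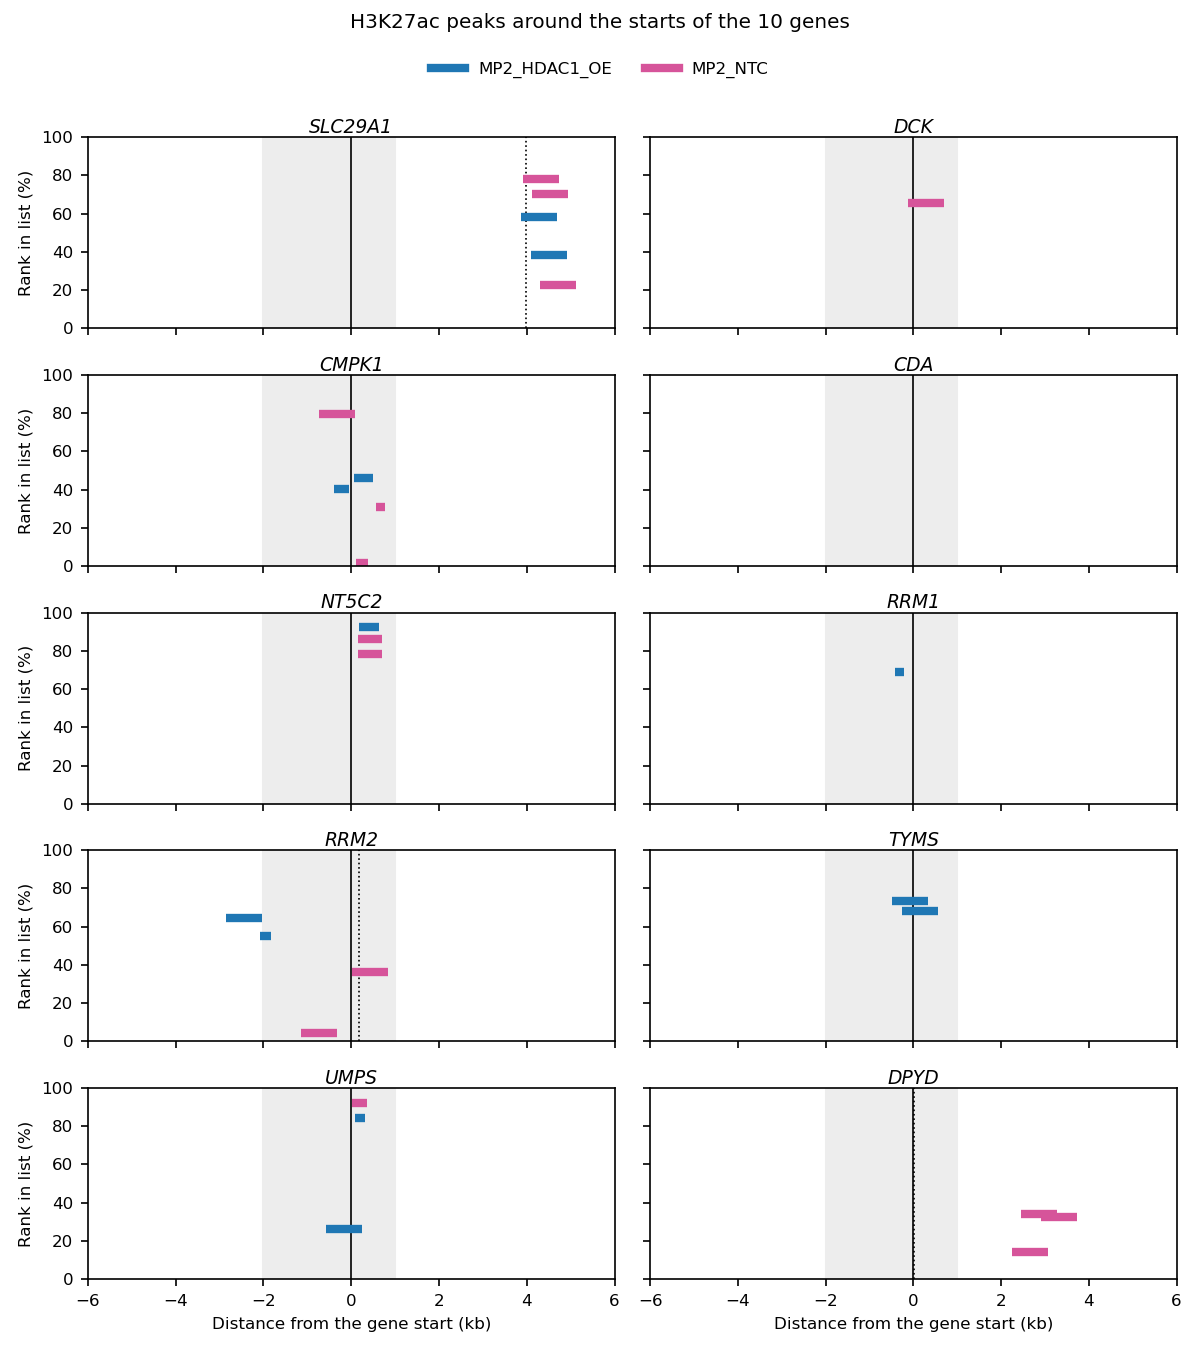
H3K27ac peaks within 6 kb of the start of each gene, with the distance from the most upstream listed start on the x axis (kb, read in the direction of the gene) and the rank of each peak in its list on the y axis (%). Bars are peaks of MP2_HDAC1_OE (blue) and MP2_NTC (pink), gray marks the promoter window of the most upstream start and dotted lines are other starts that fall in view. *RRM1* and *TYMS* have blue bars alone, *DCK* and *DPYD* pink bars alone and *CDA* none in view. At *RRM2* no blue bar overlaps a pink one.

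*RRM1* and *RRM2* encode the large and the small subunit of ribonucleotide reductase, and *TYMS* encodes thymidylate synthase. *RRM1* had 1 peak in its window, chr11:4094263-4094478 in MP2_HDAC1_OE, with a signal of 57.8 and a rank of 68.9%. It ended 207 bp before the start and covered 44 of the 250 promoter bases shown. The closest MP2_NTC peak lay 92516 bp away. *TYMS* had 2 overlapping peaks of MP2_HDAC1_OE, chr18:657161-657980 and chr18:657404-658223, which covered its start at 657653 and all 250 promoter bases. Their signals were 61.6 and 57.3 and their ranks 73.6% and 68.3%, and the closest MP2_NTC peak lay 43873 bp away. Of genes whose strongest MP2_HDAC1_OE promoter peak ranked between 60% and 70%, 19.2% had no promoter peak in MP2_NTC, and between 70% and 80% this share was 9.59%.

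*RRM2* was marked in both lists at different places. In MP2_HDAC1_OE the peaks were chr2:10119720-10120539, with a rank of 64.7%, and chr2:10120488-10120739, with a rank of 55.2%. Both lay upstream, the nearer ending 1829 bp before the start at 10122568 and the farther just outside the promoter window at 2029 bp. In MP2_NTC the peak chr2:10122577-10123396, with a rank of 36.2%, covered the start at 10122739 and 162 of the 250 bases shown. A weak MP2_NTC peak, chr2:10121422-10122241 with a rank of 4.16%, lay 682 bp from the nearest MP2_HDAC1_OE peak, and another within the gene (chr2:10139612-10140431) ranked at 8.27%. Among the 6232 genes with a promoter peak in both lists 96.6% had a shared region there, so *RRM2* was among the few that did not.

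**Figure D3:**
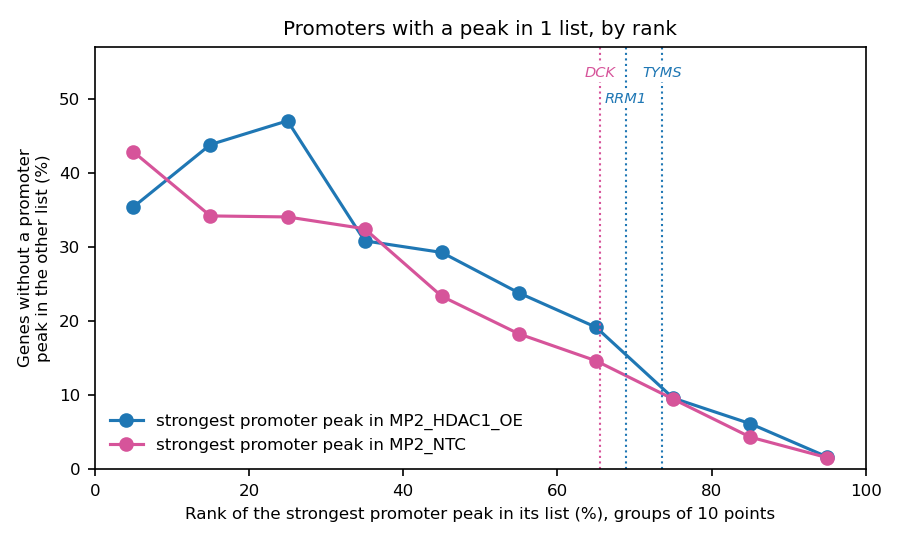
Share of genes without a promoter peak in the other list (y axis, %) by the rank of their strongest promoter peak (x axis, in groups of 10 points), for MP2_HDAC1_OE (blue) and MP2_NTC (pink). Dotted lines mark *DCK* at 65.6%, *RRM1* at 68.9% and *TYMS* at 73.6%, where the share had fallen below 20% in both lists.

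*UMPS* encodes the enzyme that joins fluorouracil to a ribose phosphate, and *DPYD* encodes dihydropyrimidine dehydrogenase, which starts the breakdown of fluorouracil. *UMPS* was strongly marked in both lists. The leading peak was chr3:124730527-124730763 in MP2_HDAC1_OE, with a signal of 73.0 and a rank of 84.2%, and chr3:124730465-124730812 in MP2_NTC, with a signal of 95.8 and a rank of 92.3%. MP2_HDAC1_OE also had the peak chr3:124729872-124730691, with a rank of 26.0%, which covered the start at 124730452 and all 250 promoter bases, while the MP2_NTC peak began 13 bp past the start. *DPYD*, a gene of 843317 bp, had peaks at 1 place in its whole window. The 3 overlapping MP2_NTC peaks ran from chr1:97917335 to chr1:97918818, 2216 bp or more inside the gene from its start at 97921034, with ranks of 34.3%, 32.3% and 14.1%. They lay outside the promoter window, and the closest MP2_HDAC1_OE peak was 81548 bp away. Among 315 protein-coding genes over 500 kb, 84.8% had 1 region or none. The *DPYD* promoter was not poor in CpG, with a ratio of 0.677 before its most upstream start, and 55.3% of genes with a ratio between 0.5 and 0.75 had a promoter peak.

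The windows of the 10 genes held 20 peaks of MP2_HDAC1_OE and 24 of MP2_NTC, which merged into 19 regions wherever they shared 1 bp. Peaks of MP2_HDAC1_OE alone made up 4 of them, peaks of MP2_NTC alone 8 and peaks of both lists 7. Over all 18678 regions these classes held 28.6%, 20.7% and 50.7%. By gene, 4 of 10 windows held a region unique to MP2_HDAC1_OE, against 26.3% of all protein-coding genes, 5 held one unique to MP2_NTC, against 23.4%, and 4 held a shared region, against 50.9%. The windows of *DCK*, *CDA* and *DPYD* held peaks of MP2_NTC alone and those of *RRM1* and *TYMS* peaks of MP2_HDAC1_OE alone, 5 of 10 against 9.94% of all genes. No window was empty, while 36.9% of all genes had no peak in theirs. Of the 8 regions unique to MP2_NTC, 3 belonged to *RRM2*, and the weakest of the 8 had leading ranks of 4.16% and 8.27% at *RRM2* and 24.1% at *CDA*.

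**Figure D4:**
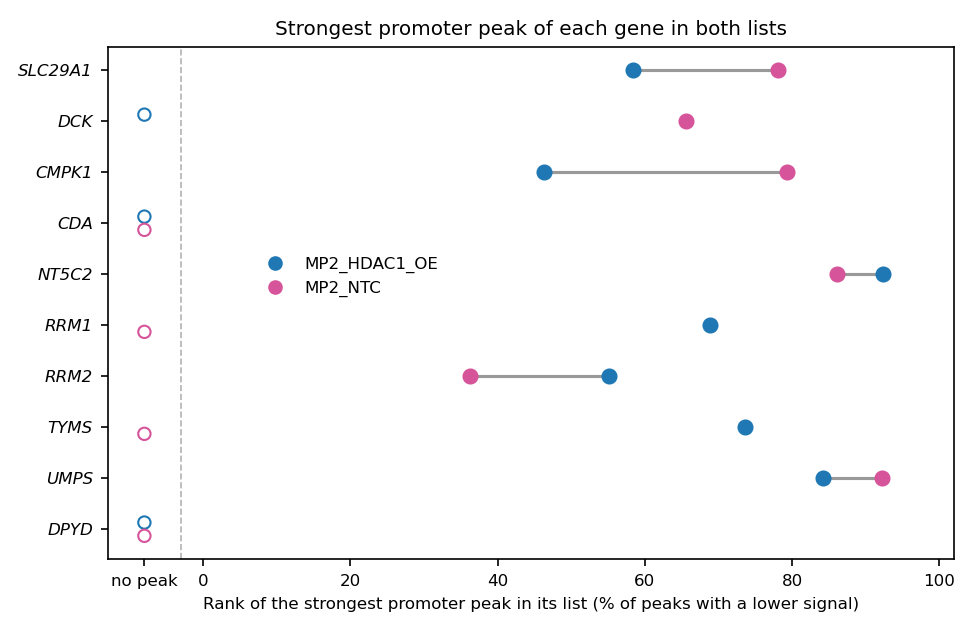
Rank of the strongest promoter peak of each gene in its list (x axis, % of peaks with a lower signal) in MP2_HDAC1_OE (blue) and MP2_NTC (pink), with open circles where a list had no promoter peak. *CMPK1* (46.2% and 79.4%), *SLC29A1* and *UMPS* ranked lower in MP2_HDAC1_OE, and *NT5C2* and *RRM2* ranked higher. The peaks compared at *RRM2* did not overlap.

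The strongest promoter peak could be compared between the lists at 5 genes. It ranked higher in MP2_HDAC1_OE at 2 of them, against 54.7% of the 6232 genes with a promoter peak in both lists. The same 2 genes, *NT5C2* and *RRM2*, ranked higher when the strongest peak of the whole window was taken, against 55.6% of 10662 genes, with the peaks at *HSP90AB1* standing for *SLC29A1*. Over all genes the rank in MP2_HDAC1_OE minus that in MP2_NTC had a median of 1.16 points, with quartiles at -9.22 and 12.9. *CMPK1* stood at -33.1 points, between leading peaks that overlapped only at their ends, and 5.50% of genes had a lower difference. *SLC29A1* stood at -19.6, with 12.8% of genes lower, and *UMPS* at -8.07, with 26.8% lower. *NT5C2* at 6.31 and *RRM2* at 19.0 had 62.9% and 82.4% of genes below them. The leading promoter peaks of *RRM2* did not overlap, and MP2_HDAC1_OE had no peak at its start. The median promoter rank of the marked genes was 68.9% over 7 genes in MP2_HDAC1_OE, where all genes had 77.1%, and 78.7% over 6 genes in MP2_NTC, where all genes had 75.2%.

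**Figure D5:**
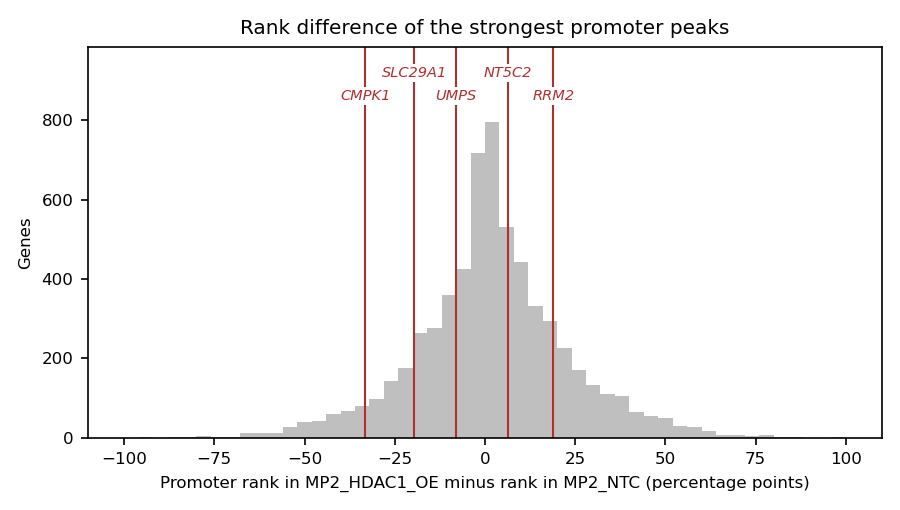
Promoter rank in MP2_HDAC1_OE minus that in MP2_NTC (x axis, percentage points) for the 6232 genes with a promoter peak in both lists (gray, y axis in genes), with red lines at 5 of the drug genes. *CMPK1* at -33.1 has 5.50% of genes below it, and *NT5C2* at 6.31 lies between the quartiles of -9.22 and 12.9.

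Of 38 other genes of drug uptake, activation, inactivation and of the targets and their cofactors, 28 had a start in the RefSeq table used. Of these, 17 had a promoter peak in both lists, 2 in MP2_HDAC1_OE only, 3 in MP2_NTC only and 6 in neither, where all genes had 39.3%, 6.36%, 5.51% and 48.8%. Of the 17, the strongest peak ranked higher in MP2_HDAC1_OE at 11, against 54.7% of all genes marked in both lists. The median rank of the 17 was 82.3% in MP2_HDAC1_OE and 77.3% in MP2_NTC, and that of all 6232 genes marked in both lists was 80.3% and 78.2%. The genes marked in MP2_HDAC1_OE only were *NT5E*, which encodes the surface nucleotidase CD73, with a leading peak at chr6:85449795-85450614 and a rank of 77.7%, and *DUT*, whose product splits dUTP, at chr15:48331176-48331414 with a rank of 23.9%. Those marked in MP2_NTC only were *SAMHD1*, whose product splits deoxynucleotide triphosphates, at chr20:36950940-36951759 with a rank of 63.2%, *TK1*, the cytosolic thymidine kinase, at chr17:78187125-78187944 with a rank of 36.4%, and *TYMP*, thymidine phosphorylase, at chr22:50531295-50532114 with a rank of 12.3%. Next to their shared promoter regions, 4 genes also had a promoter region unique to MP2_NTC and *FPGS*, which adds glutamates to folates, had one unique to MP2_HDAC1_OE. The strongest promoter peaks in MP2_HDAC1_OE and MP2_NTC ranked at 83.9% and 72.5% at *FPGS*, and at 24.6% and 69.0% at *MTHFD1*, an enzyme of folate metabolism. They ranked at 73.0% and 86.2% at *NME2*, a nucleoside diphosphate kinase, at 89.6% and 85.8% at *DTYMK*, thymidylate kinase, and at 82.3% and 73.9% at *PPAT*, an enzyme of purine synthesis. Against 39.3% of all genes, of 13 activation genes with a listed start 9 were marked in both lists, of 7 inactivation genes 3, of 6 target and cofactor genes 5 and of 2 uptake genes none, groups too small to compare. Within 2 kb of any of the 38 genes, 25 had peaks of both lists, 3 of MP2_HDAC1_OE only, 2 of MP2_NTC only and 8 of neither, where 41.7%, 6.20%, 5.30% and 46.8% of all protein-coding genes fell into these classes.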

How the data were processed

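H3K27ac ChIP-sequencing with the antibody Abcam ab4729 was measured in 2 samples of MP2_HDAC1_OE and 2 of MP2_NTC, with 2 controls without an antibody for each line. Single-end reads went through the ENCODE pipeline for ChIP-seq in the hands of the authors, and the submitters' processing notes name BWA 0.7.12, Picard 1.88 and the build hg38. The peak caller is not given in the sources used here. For either line the authors deposited 1 list, named as the optimal set of the IDR test of reproducibility. Whether each of its peaks was found in both samples is not known here. The deposited signal of a peak was used for ranks within its list. The deposited score and the −log10 IDR value were not used for any result.

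The members and lists were chosen with earlier results of these data known. The text names all 10 members with their peaks and the other pathway genes with a promoter region unique to 1 list by their values. It also names *HDAC1*, the markers, and other genes with a start or gene end in a peak of a member window. All 10 members matched the RefSeq tables (GRCh38.p14) by symbol. Gene positions came from RefSeq, and 15843 of 20056 protein-coding genes had a listed start. Peaks were merged where they shared 1 bp, and a region was unique when all its peaks came from 1 list. The ratio of CpG was the number of CpG times the length, divided by the product of the numbers of C and G, in the 250 bases before the most upstream start. Exons and introns were not used here. Python 3.11.15, numpy 2.4.6, pandas 2.3.3 and matplotlib 3.10.9 were used, and the methods were tested on simulated data. Alternatives covered the overlap, gaps, window sizes, stricter lists and the choice of start.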

Additional observations from a re-analysis of the deposited data

How the results depend on the processing

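No paired analysis was possible because the samples of a line were pooled into its list, which also means that no replicate could be left out. Over the 6 counts and their 40 alternatives, 34 alternatives stayed within 1.5 times the reported count and 6 did not. With single peaks that had to share 50% of both peaks, 20 peaks of the windows had a partner in the other list, while 11 from MP2_HDAC1_OE and 13 from MP2_NTC lacked it, a count of peaks in place of regions. With the top 75% of peaks by signal, 5 regions were unique to MP2_NTC in place of 8. With 50 kb on either side, 11 regions were shared in place of 7. Within shared regions alone, the strongest peak ranked higher in MP2_HDAC1_OE at 1 of 4 genes, since *RRM2* has no shared region. The counts of genes with a promoter peak ran from 6 to 7 in MP2_HDAC1_OE and from 5 to 7 in MP2_NTC. With 1 kb on either side of a start, *RRM2* left the MP2_HDAC1_OE count, since its peaks there lay 1829 bp or more before the start. *RRM2* then had no promoter ranks to compare between the lists. Alternatives chosen after seeing the data were the most upstream start, 5 kb either side, and leaving out regions in other genes' promoters. The most upstream start alone took *SLC29A1* out of both counts, and 5 kb on either side of a start brought *DPYD* into the MP2_NTC count. Leaving out regions in the promoter window of another gene's listed start left 5 shared regions. The region at the lower end of *PINK1* was not left out by this, since no start of *PINK1* was listed there. The 8 regions that stayed unique to MP2_NTC may therefore count a promoter region of another gene. Of 15 ranks of strongest peaks, all 15 were lower among non-overlapping intervals than among single peaks. The pooled lists give no spread between cultures, and with no read counts a gene without a peak cannot be told apart from one just under the authors' threshold.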
